A study of Rattus norvegicus with 4 samples.

Results

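The genes described here run the unfolded protein response, protein folding in the endoplasmic reticulum (ER), ER-associated degradation (ERAD) and protein entry through the translocon. They are 34 rows of a table of 18699 rat genes, taken by gene symbol from a list by function. The sensor group has 4 genes: the sensors Atf6, Ern1 and Eif2ak3 and the transcription factor Xbp1. The others are 8 chaperones and cofactors, 4 disulfide isomerases, 10 ERAD genes and 8 translocon genes. RNA came from neonatal rat ventricular myocytes, primary heart muscle cells of wild-type Sprague Dawley rats aged 1 to 3 days. One group of 2 libraries received vehicle and the other group of 2 libraries 1 µM carfilzomib, an irreversible inhibitor of the proteasome, for 24 h. Both groups grew in 15% serum with 0.1 mM bromodeoxyuridine, which holds back the growth of non-muscle cells. The comparison addresses how carfilzomib harms heart cells. Nothing in the labels says that 2 libraries of 1 group stem from different cultures or litters. The p-values therefore reflect how far these libraries vary, and that variation may be technical.

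The 4 libraries held 18655450 to 18884333 counts, and 14519 genes passed the filter on low counts, all 34 members among them. Over all of these, 8812 genes were called, 60.7%, with 30.6% higher and 30.1% lower with carfilzomib. A call means an adjusted p under 0.05 in edgeR's quasi-likelihood test with Benjamini-Hochberg adjustment over all genes. Levels within a gene are given as CPM, counts relative to a library size scaled with TMM factors, and every fold change is carfilzomib over vehicle. The 10 cardiomyocyte markers summed to 32723 and 32703 CPM with vehicle and 10658 and 10146 CPM with carfilzomib, while 10 fibroblast markers summed to 33250 and 33636, then 19127 and 18486 CPM. The cultures thus held fibroblast RNA beside muscle RNA, and in bulk RNA fewer cells of a type and less RNA per cell cannot be told apart.

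Proteins that enter the ER are threaded through the SEC61 channel, folded by chaperones such as BiP and joined by disulfide bonds. Chains that do not fold are pulled back to the cytosol, ubiquitinated and handed to the proteasome, the step that carfilzomib blocks. The membrane sensors ATF6, IRE1 and PERK respond to unfolded protein, and through ATF6 and the spliced form of XBP1 they raise transcription of chaperone and ERAD genes. Heart muscle depends on this system for its membrane proteins and secreted peptides.

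Many of these genes are known for an ER stress response element (ERSE) near the start of transcription, which ATF6 binds together with NF-Y. It was searched as CCAAT, then 9 bases of any kind, then CCACG, on both strands, and a shorter form, ERSE-II, as ATTGG, 1 base of any kind, then CCACG. RefSeq promoters of the rat build GRCr8, from 250 bases before to 50 after a start, were found for 26 of the 34 members. The ERSE letters stood in 7 of these 26 (Xbp1, Hspa5, Hsp90b1, Calr, Canx, Creld2 and Derl3), 26.9%, and in 21 of all 27457 genes of the promoter table, 0.0765%. The ERSE-II letters stood in Hyou1 and Herpud1, 7.69% of the 26, and in 17 of all genes, 0.0619%. Some of the matches are shown because these genes include the largest falls and also 2 of the rises among the members. Each run is written 5′ to 3′ on the strand of the gene and stops before the start, with the match in capitals (on the opposite strand it reads CGTGG first).
Xbp1 (GRCr8 chr14:84604528-84604606, plus strand): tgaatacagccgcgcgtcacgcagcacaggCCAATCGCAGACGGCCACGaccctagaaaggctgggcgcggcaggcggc
Hspa5 (chr3:38452943-38453015, plus strand): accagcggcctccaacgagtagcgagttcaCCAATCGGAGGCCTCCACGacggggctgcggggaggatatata
Creld2 (chr7:121789209-121789287, plus strand): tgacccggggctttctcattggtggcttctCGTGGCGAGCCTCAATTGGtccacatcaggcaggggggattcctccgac
Herpud1, ERSE-II (chr19:10614791-10614861, minus strand): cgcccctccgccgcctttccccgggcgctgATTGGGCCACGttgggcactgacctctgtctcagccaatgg
Hyou1, ERSE-II nearest the start (chr8:53602764-53602834, plus strand): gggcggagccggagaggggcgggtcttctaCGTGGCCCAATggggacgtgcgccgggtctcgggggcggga
Hsp90b1, nearest the start (chr7:23012317-23012395, minus strand): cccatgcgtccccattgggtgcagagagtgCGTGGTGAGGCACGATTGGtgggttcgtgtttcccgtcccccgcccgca
Canx (chr10:35158039-35158107, minus strand): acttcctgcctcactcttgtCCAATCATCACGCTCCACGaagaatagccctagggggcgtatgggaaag

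The 34 members split in both directions with modest sizes. Carfilzomib raised 12 and lowered 13, and 9 were not called. That is 73.5% called beside 60.7% of all genes tested, and none reached 2-fold, which 11.1% of all genes tested did. The members' median log2 fold change was -0.03, beside 0.0028 over all genes tested. The largest fall was 1.80-fold, in Herpud1, and the largest rise 1.38-fold, in Edem3. Of the members that fell, 5 passed a log2 fold change of -0.5 (Herpud1, Xbp1, Creld2, Manf and Sdf2l1), and of those that rose 0 passed 0.5. The median absolute log2 fold change was 0.379 over the called members, beside 0.497 over all genes called. The 2 libraries of each group did not overlap in 28 members, 82.4%, beside 79.9% of all genes tested, a share near the background. Among the 8 chaperones and cofactors 6 fell and 2 rose. Among the 10 ERAD genes 5 rose (3 with DESeq2) and 1, Herpud1, fell. Over all genes tested 30.6% were higher and 30.1% lower.

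**Figure D1:**
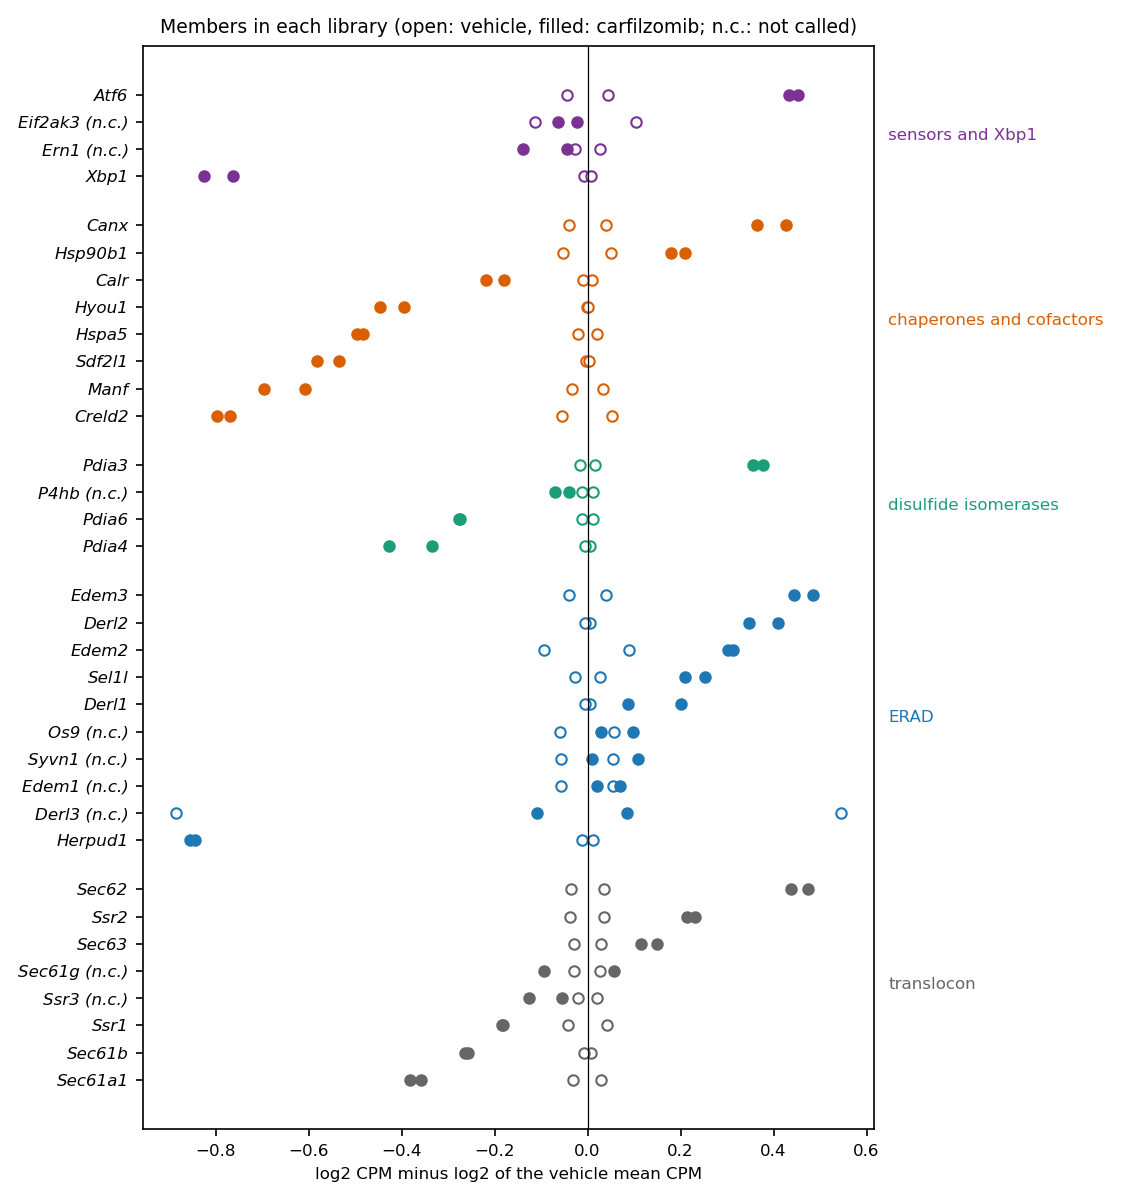
Each row is a member, grouped by role; the x axis gives log2 CPM minus the log2 of the vehicle mean CPM, with open points for the 2 vehicle and filled points for the 2 carfilzomib libraries. Creld2, Manf, Xbp1 and Herpud1 lie far to the left, Atf6, Sec62 and Edem3 to the right, and the 9 members that were not called are marked.

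Of the 4 genes of the sensor group 1 rose, 1 fell and 2 were not called. Atf6 (gene ID 304962), a transcription factor held in the ER membrane until stress releases it, was at 127 and 119 CPM with vehicle and at 166 and 169 CPM with carfilzomib. The groups did not overlap. It rose by a log2 fold change of 0.44 ± 0.05 (SE; edgeR adjusted p = 8.8e-07). Its values are less certain, since part of its estimated counts carried decimals. Such genes are called genes with split reads here, though what produced the decimals is not stated. They include 10 of the 34 members, beside 5219 of the 14519 genes tested.

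Xbp1 (gene ID 289754), the transcription factor whose mRNA IRE1 splices, went the other way. It was at 148 and 149 CPM with vehicle and at 83.9 and 87.5 CPM with carfilzomib, so that the groups lay far apart. The log2 fold change was -0.79 ± 0.05 (SE; edgeR adjusted p = 2.14e-09). Counts per gene do not separate its spliced from its unspliced mRNA.

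Ern1, which encodes IRE1, stood at 40.8 and 42.3 CPM with vehicle and 37.7 and 40.3 CPM with carfilzomib. Its groups lay next to each other without overlap, and the log2 fold change of -0.09 ± 0.06 (SE) was not called, with an edgeR adjusted p of 0.227. Eif2ak3, which encodes PERK, stood at 36.1 and 31.1 CPM with vehicle and 32.2 and 33.1 CPM with carfilzomib. Its groups overlapped, with a log2 fold change of -0.04 ± 0.08 (SE), an edgeR adjusted p of 0.644, and 0.07 without vehicle replicate 1. Of the 3 sensors only Atf6 was called, and a difference between their responses was not tested.

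The chaperones and cofactors comprised 6 that fell and 2 that rose, 75.0% lower beside 30.1% of all genes, with a median log2 fold change of -0.45. Hspa5 (gene ID 25617) encodes BiP, the HSP70 of the ER lumen that also restrains the sensors. It was at 1180 and 1146 CPM with vehicle and at 825 and 832 CPM with carfilzomib, a log2 fold change of -0.49 ± 0.04 (SE; edgeR adjusted p = 4.31e-08). The 4 libraries fell into 2 narrow pairs. Hyou1, an HSP110-like partner that exchanges nucleotide on BiP, was at 285 and 286 CPM and then at 210 and 217 CPM, at a log2 fold change of -0.42 ± 0.04 (SE). Sdf2l1, a small partner of the BiP system, was at 21.4 and 21.5 CPM and then at 14.8 and 14.4 CPM, with -0.56 ± 0.09 (SE). BiP and both of these partners thus ended lower in every treated library than in any vehicle library. The groups lay apart, in either direction, in 79.9% of all genes tested.

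The steepest falls among the chaperones and cofactors were those of 2 small proteins of the ER lumen. Creld2, a stress-induced protein with disulfide isomerase activity, was at 44.0 and 40.8 CPM with vehicle and 24.4 and 24.8 CPM with carfilzomib. Manf, a secreted survival factor that also binds BiP, was at 154 and 162 CPM and then at 104 and 97.5 CPM. Their log2 fold changes were -0.78 ± 0.07 and -0.65 ± 0.05 (SE), with edgeR adjusted p of 1.12e-07 and 2.85e-08.

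The 2 members that rose were Hsp90b1, the HSP90 of the ER known as GRP94, and Canx, the membrane-bound lectin chaperone calnexin. Hsp90b1 was at 865 and 805 CPM with vehicle and 966 and 946 CPM with carfilzomib, a log2 fold change of 0.20 ± 0.04 (SE). Canx, a gene with split reads, was at 819 and 776 CPM and then at 1027 and 1073 CPM, a log2 fold change of 0.40 ± 0.04 (SE). Calr, the soluble lectin chaperone calreticulin, moved against its membrane-bound relative, from 1724 and 1699 CPM to 1510 and 1471 CPM, at a log2 fold change of -0.20 ± 0.04 (SE; edgeR adjusted p = 3.88e-04).

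Hence the proportions among the chaperones shifted within each library. On the authors' FPKM scale, which corrects for gene length, Calr stood 4.74 and 4.93 times as high as Canx with vehicle and 3.31 and 3.08 times with carfilzomib. Hspa5 over Hsp90b1 was 1.49 and 1.56 with vehicle and 0.936 and 0.964 with carfilzomib, so that GRP94 mRNA exceeded BiP mRNA per length only in the treated libraries. Like the other ratios between members, these pairs were chosen after their values were seen. In the same libraries all 10 fibroblast markers fell, at a median log2 fold change of -0.82, as did 9 of 10 cardiomyocyte markers at a median of -1.23. The part of either in the chaperone falls was not tested.

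**Figure D2:**
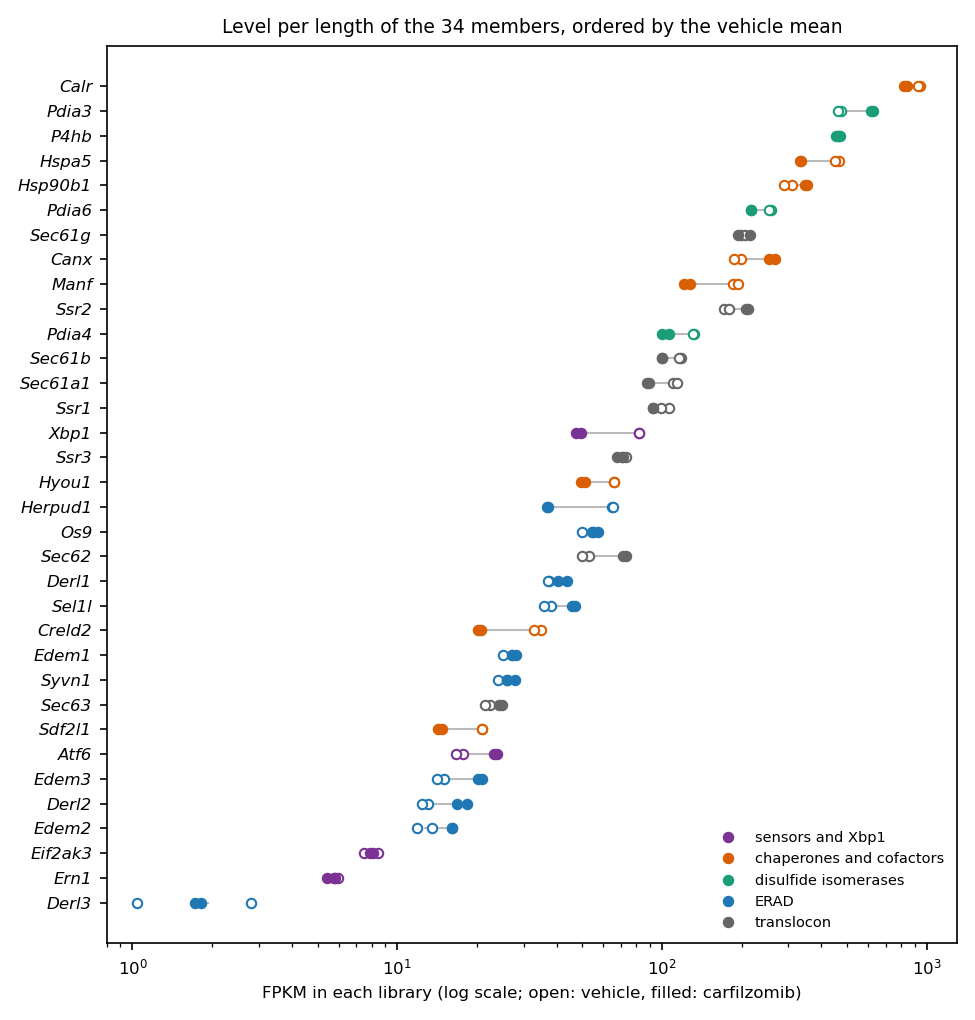
FPKM of each member in each library on a log axis, ordered from the highest to the lowest vehicle mean; open points are vehicle and filled points carfilzomib, with a line between the group means. Calr is at the top at 940 and 922 FPKM with vehicle, Ern1 and Derl3 are at the bottom, and Derl3 has the widest gap between vehicle libraries, at 2.80 and 1.04 FPKM.

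Among the 4 disulfide isomerases 2 fell, 1 rose and 1 was not called, so that 3 of 4 were called beside 60.7% of all genes tested, and the median log2 fold change was -0.16. These enzymes form, break and rearrange disulfide bonds. Pdia4 was at 304 and 301 CPM with vehicle and 225 and 240 CPM with carfilzomib, a log2 fold change of -0.38 ± 0.04 (SE). Pdia6, a gene with split reads, fell by 0.28 ± 0.04 (SE) on the log2 scale, from 436 and 429 CPM to 357 and 358 CPM. Both are enzymes of the BiP chaperone network and their falls were smaller than that of Hspa5, a difference that was not tested.

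Pdia3, or ERp57, works on glycoproteins bound to calnexin and calreticulin. It was at 880 and 861 CPM with vehicle and at 1114 and 1131 CPM with carfilzomib, and the log2 fold change was 0.37 ± 0.04 (SE; edgeR adjusted p = 9.03e-07). It has split reads, like Canx, so both rises rest on counts that partly carry decimals. P4hb, the classical protein disulfide isomerase, stood at 1201 and 1179 CPM and then at 1134 and 1158 CPM. Its groups lay close without overlap, and the log2 fold change of -0.05 ± 0.04 (SE) was not called, with an edgeR adjusted p of 0.24. Per length Pdia3 stood 3.61 and 3.56 times above Pdia4 with vehicle and 6.17 and 5.87 times with carfilzomib.

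Among the 10 ERAD genes 5 rose, beside 30.6% of all genes tested, 1 fell and 4 were not called. Their median log2 fold change was 0.10. With DESeq2 3 of the 10 were called higher. Over all genes DESeq2 called 3340 higher, against 4444 with edgeR. Edem3, Edem2 and Edem1 encode mannosidase-like proteins that mark misfolded glycoproteins for removal. Edem3, with split reads, was at 101 and 95.4 CPM with vehicle and 133 and 137 CPM with carfilzomib, a log2 fold change of 0.46 ± 0.05 (SE; edgeR adjusted p = 1.06e-06). Edem2 was at 22.0 and 25.0 CPM and then at 28.9 and 29.1 CPM, at a log2 fold change of 0.31 ± 0.08 (SE). Its edgeR adjusted p was 0.00304, against a DESeq2 adjusted p of 0.0584. Edem1, at 155 and 143 CPM and then at 152 and 157 CPM, was not called and its groups overlapped, with a log2 fold change of 0.05 ± 0.05 (SE) that was -0.01 without vehicle replicate 2.

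Of the 3 derlins, membrane proteins of the channel through which substrates leave the ER, 2 were called, near the 60.7% of all genes tested. Derl2 (gene ID 100910823) was at 37.5 and 37.2 CPM with vehicle and 49.6 and 47.5 CPM with carfilzomib, with a log2 fold change of 0.38 ± 0.06 (SE; edgeR adjusted p = 7.32e-05). Derl1 was at 103 and 102 CPM and then at 109 and 118 CPM, at a log2 fold change of 0.15 ± 0.05 (SE; edgeR adjusted p = 0.0253). The call of Derl1 was lost with DESeq2, with the replicate block, and without vehicle replicate 1, vehicle replicate 2 or carfilzomib replicate 2, with an adjusted p of up to 0.299 over these alternatives. Derl3, the form of secretory tissues, was scarce at 6.41 and 2.38 CPM with vehicle and 4.66 and 4.08 CPM with carfilzomib. Its vehicle libraries enclosed the treated ones, and the log2 fold change of -0.01 ± 0.59 (SE) rested on which vehicle library was kept. It was called lower without vehicle replicate 2 (-0.55, edgeR adjusted p = 0.0415) and higher without vehicle replicate 1 (0.88, edgeR adjusted p = 0.0165).

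Herpud1 (gene ID 85430), a membrane protein that organizes the HRD1 ligase complex, was the only ERAD member called lower in the reported fit. It was at 118 and 120 CPM with vehicle and at 65.6 and 66.1 CPM with carfilzomib, and no other member fell as far. The log2 fold change was -0.85 ± 0.05 (SE; edgeR adjusted p = 2.11e-09). Sel1l, the adaptor that feeds substrates to the same ligase, was at 220 and 212 CPM and then at 250 and 257 CPM, at a log2 fold change of 0.23 ± 0.04 (SE) and split reads. Syvn1, the ligase HRD1 itself, stood at 72.6 and 78.5 CPM and then 81.5 and 76.0 CPM, a log2 fold change of 0.06 ± 0.06 (SE). Os9, a lectin that brings glycoproteins to it, stood at 143 and 155 CPM and then 159 and 152 CPM, with 0.06 ± 0.05 (SE). Both overlapped between groups and were not called. Per length, Sel1l over Herpud1 was 0.591 and 0.547 with vehicle and 1.24 and 1.27 with carfilzomib, so the order of these 2 mRNAs turned over.

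Of the 8 translocon genes 3 rose and 3 fell, 37.5% each and near the 30.6% and 30.1% of all genes tested, 2 were not called, and the median log2 fold change was -0.05. The pore-forming subunit Sec61a1 was at 331 and 345 CPM with vehicle and 264 and 259 CPM with carfilzomib, a log2 fold change of -0.37 ± 0.04 (SE; edgeR adjusted p = 1.74e-06). Sec61b, a small subunit of the same channel, was at 61.1 and 60.4 CPM and then at 50.6 and 50.8 CPM, with -0.26 ± 0.06 (SE). Sec61g, the other small subunit, with split reads, was at 79.1 and 82.2 CPM and then at 75.5 and 83.9 CPM, and was not called. Its log2 fold change of -0.02 ± 0.06 (SE) changed sign with library-size scaling alone and without 1 library, in 3 of 11 alternatives. The 3 channel subunits thus did not all move, and per length Sec61g over Sec61a1 was 1.81 and 1.80 with vehicle and 2.17 and 2.45 with carfilzomib.

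Sec62 and Sec63, membrane partners of the channel for proteins that enter after translation, were higher with the drug. Sec62 is also known as a receptor for selective autophagy of the ER. It was at 163 and 155 CPM with vehicle and 215 and 220 CPM with carfilzomib, a log2 fold change of 0.46 ± 0.04 (SE; edgeR adjusted p = 3.89e-07). Sec63, a J-domain protein that brings BiP to the channel, was at 131 and 126 CPM and then at 143 and 139 CPM. Its log2 fold change of 0.13 ± 0.05 (SE) had an edgeR adjusted p of 0.0214. That call was lost with DESeq2, with the replicate block, and without vehicle replicate 2, carfilzomib replicate 1 or carfilzomib replicate 2, with an adjusted p of up to 0.174. Sec62 over Sec61a1 per length went from 0.484 and 0.438 to 0.795 and 0.829.

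Ssr1, Ssr2 and Ssr3 encode subunits of the translocon-associated protein complex, which assists some signal sequences. Ssr2 was at 171 and 180 CPM with vehicle and 204 and 206 CPM with carfilzomib, a log2 fold change of 0.22 ± 0.04 (SE). Ssr1 was at 273 and 257 CPM and then at 233 and 234 CPM, with -0.18 ± 0.04 (SE; edgeR adjusted p = 0.00188). Ssr3, with split reads, stood at 197 and 191 CPM and then at 178 and 187 CPM, with -0.09 ± 0.04 (SE), and was not called. Subunits of 1 complex therefore included 1 higher and 1 lower mRNA. Ssr4, its remaining subunit and not one of the 34, fell by 0.44 ± 0.06 (SE) on the log2 scale.

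Summed per length, the 4 sensor genes, Xbp1 the most abundant of them, made 114 and 112 FPKM with vehicle and 83.9 and 87.0 FPKM with carfilzomib. The 8 chaperones and cofactors added up to 2221 and 2161 FPKM with vehicle and 1992 and 1975 FPKM with carfilzomib. The 4 disulfide isomerases summed to 1337 and 1308 FPKM and then to 1385 and 1412 FPKM, with Pdia3 the 1 member that rose. ERAD genes went from 284 and 285 to 292 and 292 FPKM, and translocon genes from 853 and 856 to 847 and 875 FPKM, where the groups overlapped. All 34 together made 4808 and 4723 FPKM with vehicle and 4599 and 4642 FPKM with carfilzomib. These sums use FPKM as deposited, without the TMM factors behind the fold changes. Library size alone moved all genes upward with carfilzomib by 0.0333 on the log2 scale. A difference as small as that of the ERAD sums therefore cannot be told from the scaling.

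Set beside the promoter letters, the 9 members with an ERSE or ERSE-II match comprised 6 that fell (66.7%), 2 that rose (22.2%) and Derl3, which was not called. Over all genes tested these shares were 30.1% and 30.6%. Their median log2 fold change was -0.42, and that of the 17 members in the promoter table with neither was 0.05, with 7 that rose (41.2%), 4 that fell (23.5%) and 6 not called, nearer to the shares over all genes. The difference between both sets was not tested. Among the 9, Hspa5, Hsp90b1, Hyou1, Calr, Canx and Creld2 belong to the chaperones and cofactors, a group with a median of -0.45. The letters and the role therefore cannot be told apart in these sets. Of 17 tested genes outside the members with an ERSE or ERSE-II match, 5 fell, 2 rose and 10 were not called, with a median of -0.07. Hsp90b1 and Canx, whose sequences are printed above, carried the ERSE letters and rose, while Sdf2l1, Pdia4, Sec61b and Ssr1 carried neither and fell. The match in Hspa5 spans bases 43 to 25 before the start and that in Xbp1 bases 65 to 47. Another sequence, TGACGTGG, which spliced XBP1 and ATF6 can bind, stood in Hyou1 alone among the 26 members, where it shares CGTGG with an ERSE-II match, and in 0.681% of all genes of the promoter table. A match describes letters in this window and not binding.

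**Figure D3:**
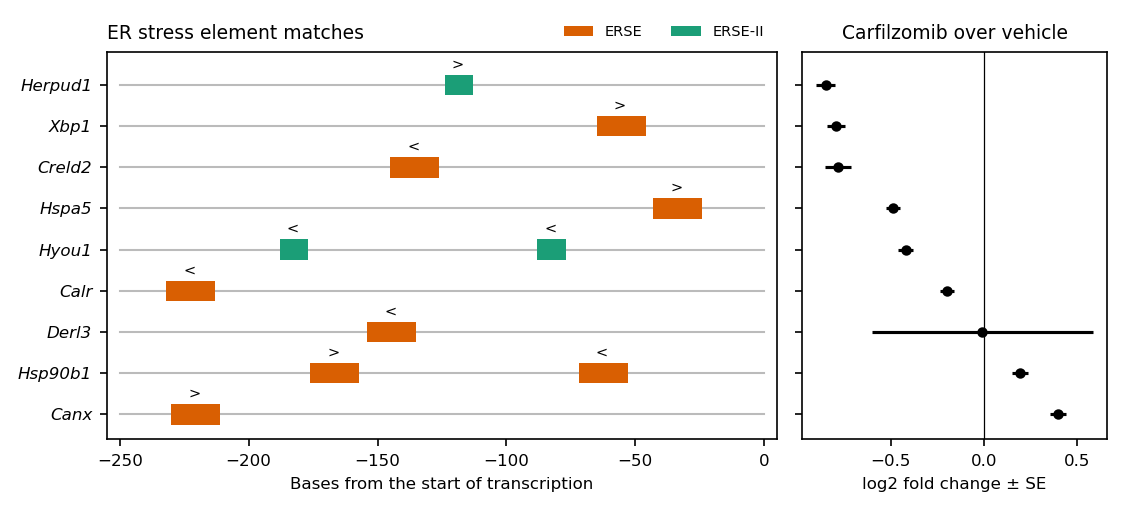
Left, positions of ERSE and ERSE-II matches in bases from the start of transcription for the 9 members that have one, with arrowheads for the strand (to the right: same as the gene); right, log2 fold change with its standard error. The members are ordered by fold change, from -0.85 in Herpud1 to 0.40 in Canx, and matches near and far from the start occur on both sides of 0.

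Other genes of the same system were counted in 11 further lists, to be read beside the 30.6% higher and 30.1% lower over all genes tested. Of 25 other ERAD factors 15 rose (60.0%), 1 fell (4.0%) and 9 were not called, with a median log2 fold change of 0.25. Ubxn4, an ER membrane adaptor of the VCP segregase, rose from 137 ± 1.21 to 322 ± 1.41 CPM (mean ± SD, n = 2), and Ube2g2, a ubiquitin-conjugating enzyme of ERAD, fell by 0.23 ± 0.06 (SE) on the log2 scale, a call lost with DESeq2 and without vehicle replicate 2 or carfilzomib replicate 2. Of 20 genes of the signal recognition particle, signal peptidase and the wider translocon 13 rose (65.0%), 4 fell (2 without vehicle replicate 1) and 3 were not called, with a median of 0.32. Ccdc47, a chaperone of multipass membrane proteins, rose by 1.27 ± 0.04 (SE), and Ssr4 was the largest fall. Of 17 genes of the ER membrane complex and the GET pathway, which insert membrane proteins, 8 rose (47.1%), 1 fell (5.88%) and 8 were not called, with a median of 0.12. Emc1, a large subunit of the complex with split reads, rose by 1.21 ± 0.04 (SE), while Ubl4a fell by 0.61 ± 0.06 (SE).

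Of 9 prolyl isomerases and collagen chaperones 8 fell (88.9%), 0 rose and 1 was not called, with a median of -0.54. Fkbp11 fell from 18.4 ± 0.52 to 8.54 ± 0.29 CPM. The list joins prolyl isomerases of the ER with the collagen chaperone Serpinh1. The summed fibroblast markers fell in the same libraries, with Col3a1 at -1.27 ± 0.04 (SE) on the log2 scale. The part of the fibroblasts was not tested. Of 19 other ER oxidoreductases 8 fell (42.1%), 6 rose (31.6%) and 5 were not called, with a median of -0.11. Pdia5, with split reads, fell by 1.49 ± 0.12 (SE), and Tmx1, a membrane-bound thioredoxin, rose by 0.76 ± 0.05 (SE). All 4 of the membrane-bound TMX genes rose, a subset chosen after its values were seen.

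In the list of J-domain and exchange factors 3 of 9 genes rose (33.3%, and 1 gene with DESeq2), 1 fell (11.1%, and 2 genes without vehicle replicate 2) and 5 were not called, with a median of 0.02. Its extremes are not such factors by name: Sdf2, the paralog of Sdf2l1 with split reads, rose by 0.97 ± 0.06 (SE), and Pofut2, a fucosyltransferase, fell by 0.65 ± 0.05 (SE). Of 20 genes of the calnexin cycle and N-glycosylation 7 fell (35.0%), 5 rose (25.0%) and 8 were not called, with a median of -0.03, shares near those of all genes. Without carfilzomib replicate 1 or carfilzomib replicate 2, 3 of them were called higher. Ostc, a subunit of the oligosaccharyltransferase, fell by 0.63 ± 0.05 (SE), and Ost4, a small subunit of the same enzyme with split reads, rose by 0.27 ± 0.05 (SE).

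Further lists hold genes that tune the sensors or act downstream of them. Of 16 regulators 8 rose, 5 fell (31.2%) and 3 were not called, with a median of 0.11, where the share that fell is near that of all genes. Creb3, a membrane-held transcription factor related to ATF6 with split reads, rose from 134 ± 6.09 to 322 ± 7.72 CPM, and its relative Creb3l1, which drives secretory and collagen genes, fell from 314 ± 29.6 to 168 ± 8.70 CPM. Of 12 genes downstream of PERK 9 fell (75.0%), 2 rose (16.7%) and 1 was not called, with a median of -0.78. With DESeq2, with the replicate block, and without vehicle replicate 1 or carfilzomib replicate 1, 1 gene of this list was called higher. Chac1 had the largest fall, at -2.04 ± 0.08 (SE), and Atf3, with split reads, the largest rise, at 0.22 ± 0.08 (SE). Of 7 matched candidate substrates of IRE1-dependent decay 6 fell (85.7%), 0 rose and 1 was not called, with a median of -0.83. Scara3 fell by 1.12 ± 0.09 (SE); the list also holds Sparc, Col6a1 and Pdgfrb, genes of fibroblasts and mural cells.

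**Figure D4:**
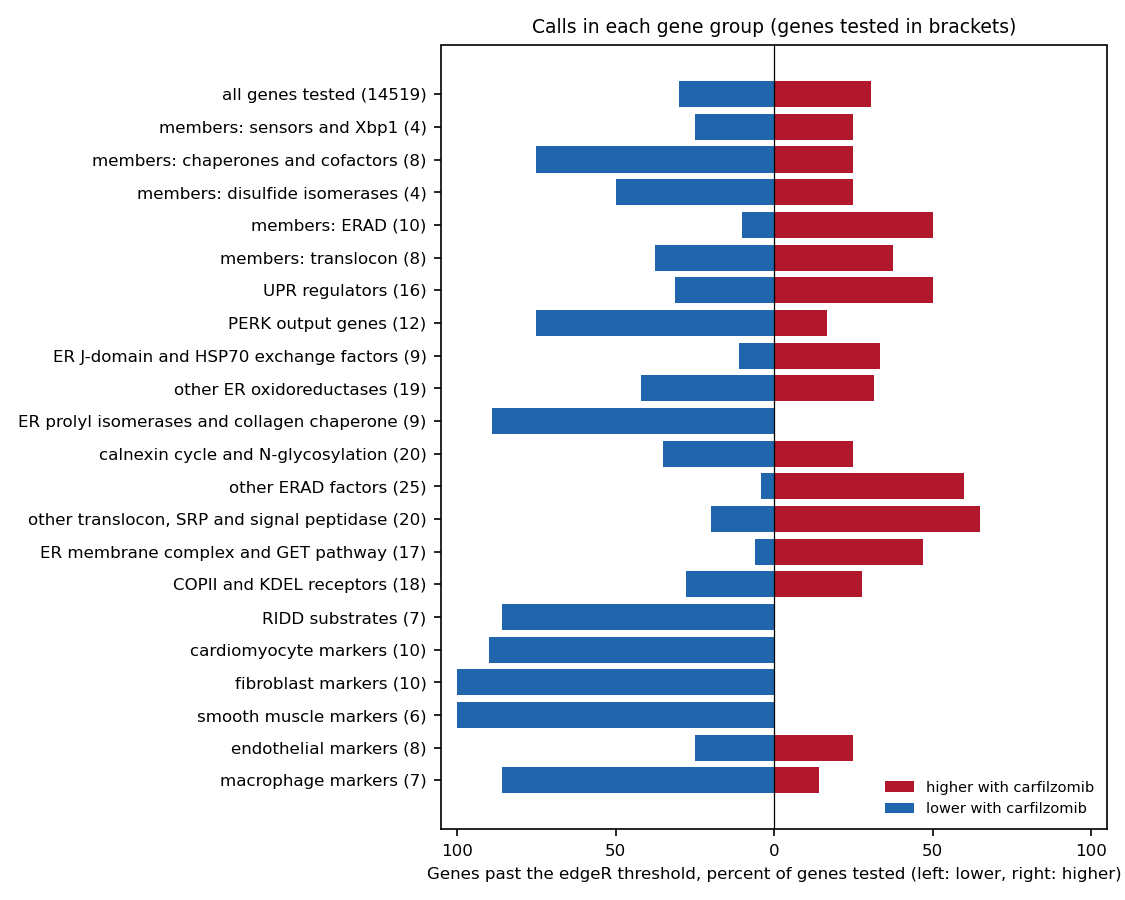
Percent of the genes tested in each group that were called higher (right) or lower (left) with carfilzomib, with the number tested in brackets and all genes tested in the top row. Other ERAD factors and the list of other translocon, signal recognition particle and signal peptidase genes extend to the right. The translocon members reach 37.5% on each side. Chaperone members, prolyl isomerases, PERK outputs and the fibroblast, muscle and macrophage markers extend to the left.

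The other marker lists were as follows. All 6 smooth muscle markers fell, with Acta2, a gene with split reads, at -2.11 ± 0.04 (SE) on the log2 scale and a summed level from 3791 and 3938 to 1340 and 1302 CPM. Of 9 macrophage markers 7 were tested, of which 6 fell and 1 rose; Lyz2 had -2.67 ± 0.10 (SE), and the list summed to 92.5 and 95.1 CPM and then to 54.5 and 49.1 CPM. Of 8 endothelial markers 2 fell, 2 rose and 4 were not called. Vwf, scarce at a mean of 3.46 CPM with vehicle and 1.29 CPM with carfilzomib, had -1.42 ± 0.24 (SE). Tek and Egfl7 were the 2 that rose, at 0.38 ± 0.06 and 0.54 ± 0.09 (SE). The endothelial list summed to 88.0 and 88.6 CPM with vehicle and to 95.1 and 92.0 CPM with carfilzomib. The largest fall of a cardiomyocyte marker was that of Myh6, at -3.79 ± 0.04 (SE). No marker was listed at 0 in all libraries.

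In the authors' deposited table, which lists 6063 genes with a q-value under 0.05, 22 of the 34 members appear, 13 lower and 9 higher. All 22 had the same sign in the edgeR fit. The 3 members called by edgeR and absent from the authors' deposited table were Edem2, Derl1 and Sec63. In the authors' deposited table Herpud1 had a log2 fold change of -0.84, Xbp1 -0.79, Hspa5 -0.48, Sec62 0.46 and Edem3 0.47.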

How the data were processed

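The sample titles gave the groups and replicate numbers, and columns named as control were read as vehicle, the only control in the labels. The authors' expression file holds deposited, unnormalised estimated counts, of which 28.5% to 28.9% per library carry decimals (over 1e-06 from a whole number), and FPKM, per the file headers. Their comparison table gives log2 fold changes with p-values and q-values from DESeq2, per the file headers. The submitters' processing notes name the build Rnor_6.0 and, without order or role, HISAT, Bowtie2, featureCounts 1.6.0, cutadapt 2.0, FastQC 0.11.8, R 3.3.2 and DESeq2. What produced the decimals is not stated there. Another 10 columns of per-sample or mean values were not used here, nor were protein sequences.

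Estimated counts were rounded and fitted across all genes with edgeR 4.0.16 in R 4.3.3: filterByExpr (minimum count 10, minimum total 15), TMM factors and the robust quasi-likelihood F test with Benjamini-Hochberg adjustment at 0.05. Each SE is |log2 fold change| over the root of its F. The scripts were tested on simulated data. Sampling noise alone would give replicates a chi-square near its degrees of freedom; the ratio was 3.32 (vehicle) and 2.99 (carfilzomib). FPKM served for levels between genes. Alternatives were DESeq2 1.42.0, limma-voom (limma 3.58.1), RLE factors, library size alone, no filter, a stricter filter (1 CPM in 2 libraries, total 50), a replicate block, and each library left out.

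The members and the 16 lists (216 entries, 215 matched by symbol) were chosen with earlier results of these data known. All members are named; from each pathway list the text takes the called gene with the largest change in each direction at a mean of at least 10 CPM, and from each marker list the called gene with the largest change at a mean of at least 1 CPM. No test between roles or lists was run.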

Additional observations from a re-analysis of the deposited data

How the results depend on the processing

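Over 11 alternatives, 27 of the 34 members kept their call and sign in each, and no called member changed sign. Calls were lost in 3 members (Edem2, Derl1 and Sec63), as given with them. Members called lower numbered 13 in the alternatives except without vehicle replicate 2, where they were 14, and members called higher ranged from 9 with DESeq2 to 12. When the 10 of 34 members with split reads were left out, 7 were higher and 11 lower, against 12 and 13 over all members. The rises of Atf6, Canx, Pdia3, Sel1l and Edem3 and the falls of Sdf2l1 and Pdia6 thus rest on counts that partly carry decimals. The labels do not say whether libraries with the same replicate number share a culture or litter. Deviations of same-numbered libraries had a correlation of -0.0151, a value that cannot settle this. With the replicate block 10 members were higher, 13 lower and 8229 genes called in all. The median log2 fold change of the members was 0.00344 with library size alone, which moved all genes by 0.0333, and lay between -0.0653 and -0.0167 when 1 library was left out. The translocon median lay between -0.106 and 0.00275 in the same way, the highest without carfilzomib replicate 1. Changes of sign were found in members that were not called in the reported fit. With 1 library left out, Eif2ak3 ranged from -0.148 to 0.0715, Edem1 from -0.0107 to 0.104, Sec61g from -0.0901 to 0.0584 and Derl3 from -0.551 to 0.876, called in opposite directions at these ends. With library size alone Sec61g was at 0.0168 and Derl3 at 0.0243, and Derl3 was at 0.155 with limma-voom and 0.0767 with the replicate block. The cause of these changes was not tested. With 2 libraries a group, small changes are limited by the spread between libraries; apart from Derl3, every member had at least 271 counts in each library.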

Other observations

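Genes that carry proteins out of the ER and bring escaped chaperones back were called in both directions. Of 18 genes of COPII vesicles and KDEL receptors 5 rose and 5 fell, 27.8% each and near the 30.6% and 30.1% of all genes tested, and 8 were not called, with a median log2 fold change of 0.04. Sar1b, the GTPase that starts COPII coats, rose from 66.4 ± 0.42 to 106 ± 1.44 CPM (mean ± SD, n = 2). Kdelr3, a receptor that returns lumenal chaperones to the ER, fell from 108 ± 6.99 to 71.3 ± 1.47 CPM, and all 3 KDEL receptors fell, a subset chosen after its values were seen.

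Outside the 34 members, 17 tested genes had an ERSE or ERSE-II match in their RefSeq promoter; 5 were lower, 2 higher and 10 not called, with a median log2 fold change of -0.07. Zfand2a, a gene with split reads, carried an ERSE match and rose by 2.39 on the log2 scale, and Dnajc3, which restrains PERK, carried one with a fold change of 0.02 that was not called; both were chosen after their values were seen. Of 104 other tested genes with a TGACGTGG match 48 were higher, 21 lower and 35 not called, with a median of 0.15. Over all genes tested 30.6% were higher and 30.1% lower, with a median of 0.0028. The counts of genes with a match are a description, and no test of them was run.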
